A study of Lytechinus variegatus with 18 samples.

Results

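The Nodal and BMP signals that set the dorsal-ventral axis of the sea urchin embryo were followed through 7 gene models of Lytechinus variegatus. They were chosen by name, with earlier results of these data known but with no level in the rule: every gene model whose closest match among the genes of the purple sea urchin (S. purpuratus) is called Nodal, Lefty, Univin, Bmp2/4, Chordin or Gsc. These 6 names gave 7 of the 27230 gene models counted, and 7 of the 7 were among the 18674 that passed the filter on low counts. RNA was sequenced from whole embryos of wild-type genotype, about 150 to a sample. Ethanol embryos had received ethanol at fertilization and control embryos carried the label control. Both were collected at 15, 18 and 21 hours post fertilization (hpf), with 3 biological replicates in each of the 6 groups. The labels give no ethanol concentration, no handling of the controls beyond their name and no parents of the cultures, so p-values measure the spread between these samples.

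In sea urchin embryos Nodal is a secreted TGF-beta ligand made on the future oral, or ventral, side. It switches on its own gene and those of its antagonist Lefty, of the BMP inhibitor Chordin, of the ligand Bmp2/4 and of oral transcription factors such as Goosecoid. Bmp2/4 made on the ventral side is held back there by Chordin and signals on the dorsal side.

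The 7 gene models are named here as their purple sea urchin hits are, and positions are those of the deposited annotation, whose genome build is not given in the sources used here. Sp-Nodal (L_var_26144) lies on chromosome 18, bases 12693762 to 12697698, plus strand, and is 75.4% identical to its hit. Sp-Lefty (L_var_12953) lies on chromosome 7, bases 624351 to 627549, minus strand, at 80.5% identity. Sp-Univin (L_var_14095, chromosome 7, bases 36811307 to 36821782) and Sp-Bmp2/4 (L_var_14096, bases 36871497 to 36873604) are neighbours on the plus strand with 49714 bases between them. Sp-Chordin is carried by 2 adjacent gene models on the plus strand of chromosome 14, L_var_21972 at bases 11243004 to 11286765 and L_var_21973 at bases 11287374 to 11288836. Only 608 bases separate them and they share 1 purple sea urchin hit, so they are not independent observations of Chordin. Sp-Gsc (L_var_13092) lies on chromosome 7, bases 4846000 to 4859102, minus strand. The 7 models drew 3992 (Sp-Bmp2/4) to 23308 (Sp-Univin) counts over the 18 libraries.

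Library totals ran from 7133636 to 8000894 counts. All 12 markers of skeletogenic, pigment, endodermal, ciliary and anterior neural cells had counts in all 18 libraries, as whole embryos should. Same-numbered libraries of different groups deviated together from their group means, with a correlation above 0.1 in 44 of 45 pairs (median 0.573). The exception was replicate 3 at 21 hpf, where the ethanol and control libraries gave -0.222. In that pair Chordin and Bmp2/4 ran opposite to the other pairs at 21 hpf, so results that rest on 21 hpf are given with and without it. The pair was thus singled out partly by values of these members. Their p-values without it are descriptions and not independent evidence. Whether the labels of these 2 libraries were exchanged was not tested, and which of them is the ethanol library is taken from the labels. Levels are given as CPM, each count relative to its library size after TMM scaling, a factor that evens out library composition. In whole embryos, fewer cells making a transcript and less transcript per cell cannot be told apart.

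**Figure D1:**
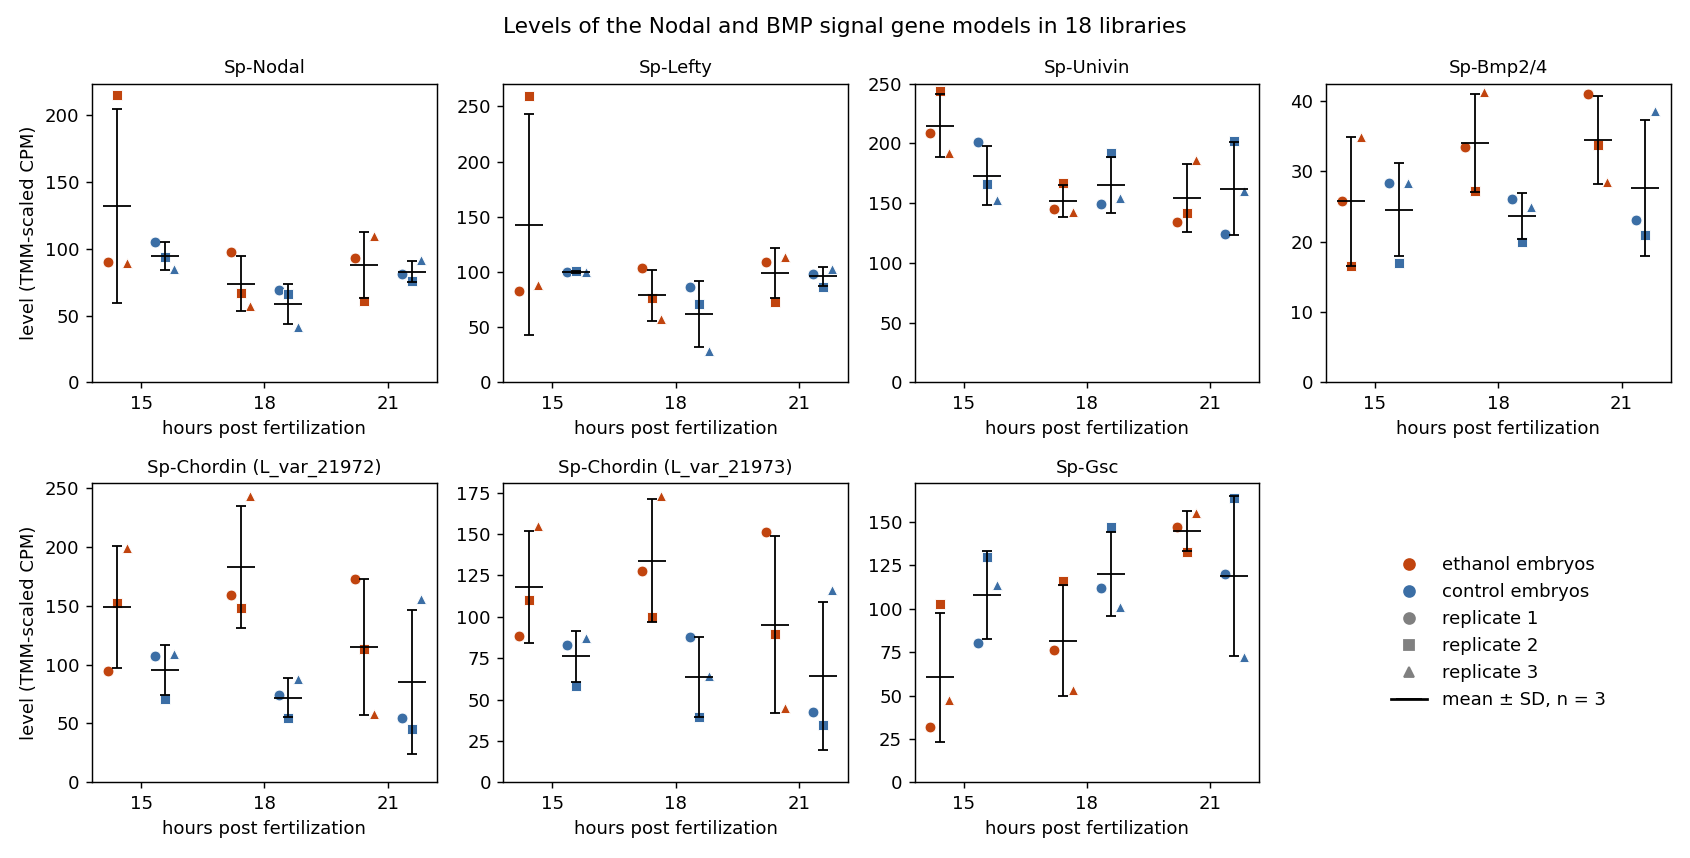
Level of each gene model (TMM-scaled CPM, vertical axis from 0) at 15, 18 and 21 hpf, ethanol libraries left of control libraries, 1 point per library shaped by replicate number, with mean ± SD bars (n = 3). At 18 hpf the ethanol libraries of both Chordin models and of Bmp2/4 lie above all control libraries, as for 13.5% of all gene models tested. At 21 hpf replicate 3 turns this round.

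Nodal itself was present in every library and did not differ between ethanol and control embryos beyond the replicate spread. At 15 hpf Sp-Nodal stood at 90.5, 215 and 89.1 CPM in the ethanol libraries of replicates 1, 2 and 3, against 105, 93.7 and 84.6 CPM in the control libraries. At 18 hpf it stood at 97.3, 67.1 and 57.5 CPM in ethanol embryos and at 69.1, 66.1 and 41.7 CPM in control embryos. At 21 hpf it stood at 93.0, 60.9 and 110 CPM in ethanol embryos and at 81.1, 75.9 and 91.6 CPM in control embryos. The groups overlapped at each time, and 1 library, ethanol replicate 2 at 15 hpf, was far above the other 17. Fitted log2 fold changes, ethanol over control, were 0.48 ± 0.33 (SE) at 15 hpf (adjusted p = 0.6 in edgeR's quasi-likelihood test), 0.33 ± 0.33 at 18 hpf (adjusted p = 0.609) and 0.09 ± 0.33 at 21 hpf (adjusted p = 1). With that library left out, the difference at 15 hpf was -0.09, so its direction rested on it.

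Lefty, the secreted antagonist that limits the spread of Nodal signalling, likewise did not differ between ethanol and control embryos beyond the replicate spread. At 15 hpf Sp-Lefty stood at 83.1, 259 and 88.1 CPM in ethanol embryos, against 99.7, 101 and 99.7 CPM in control embryos. At 18 hpf it stood at 104, 76.1 and 57.4 CPM in ethanol embryos, against 86.0, 70.6 and 28.7 CPM in control embryos. Values at 21 hpf were 109, 72.9 and 114 CPM in ethanol embryos and 98.3, 86.8 and 103 CPM in control embryos. The high library at 15 hpf was again ethanol replicate 2, and the groups overlapped at each time. Lefty's log2 fold change was 0.52 ± 0.42 at 15 hpf (edgeR adjusted p = 0.649), 0.36 ± 0.42 at 18 hpf (adjusted p = 0.66) and 0.04 ± 0.42 at 21 hpf (adjusted p = 1). Without that library the value at 15 hpf was -0.24.

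Nodal and Lefty moved together from library to library in both arms. Across the 18 libraries Pearson's r of log2 CPM was 0.95 and Spearman's rho was 0.93, each with p = 2e-05 in a two-sided permutation test, the smallest p that its resamples can give. Without the 2 libraries farthest from the median of Nodal, control replicate 3 at 18 hpf and ethanol replicate 2 at 15 hpf, r was 0.89 (permutation p = 2e-05). It was 0.98 over the 9 ethanol libraries (exact permutation p = 2.2e-05) and 0.93 over the 9 control libraries (exact permutation p = 0.000369). Within replicate number 1 the relation was not resolved, with r = 0.53 over 6 libraries (exact permutation p = 0.289), while it was 0.995 in replicate number 2 and 0.977 in replicate number 3 (exact permutation p = 0.00833 each). This was the only relation between members that was tested. The ratio of Sp-Nodal to Sp-Lefty CPM, which are not corrected for gene length, lay between 0.803 and 1.45 over the libraries, with a median of 0.911.

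Each of the pair was the gene most like the other. Among 11020 named gene models with a mean log2 CPM of at least 2, Sp-Lefty had the highest correlation with Sp-Nodal over the 18 libraries, and the next, Sp-Msp130r2, had r = 0.70. For Sp-Lefty the gene after Sp-Nodal was Sp-Nedd8 at r = 0.69. These correlations are descriptions over libraries that share groups and replicate numbers.

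**Figure D2:**
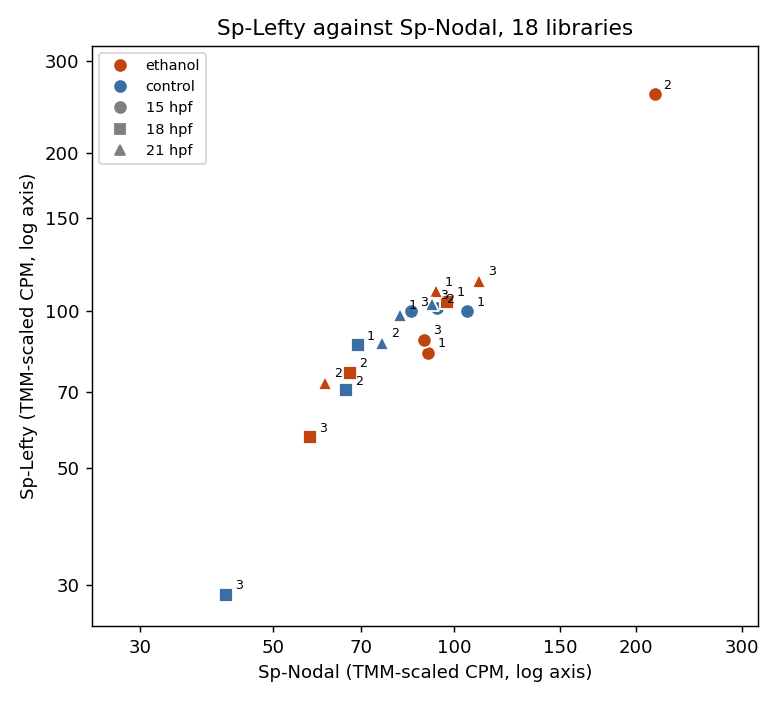
Sp-Lefty against Sp-Nodal (TMM-scaled CPM, both axes logarithmic) in 18 libraries, coloured by treatment, shaped by time and numbered by replicate. The points follow one rising line from control replicate 3 at 18 hpf (41.7 and 28.7 CPM) to ethanol replicate 2 at 15 hpf (215 and 259 CPM).

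Univin, the maternal and early zygotic Vg1-type ligand that Nodal signalling depends on in sea urchins, did not differ between ethanol and control embryos beyond the replicate spread at any time. At 15 hpf Sp-Univin stood at 209, 244 and 192 CPM in ethanol embryos, against 201, 166 and 153 CPM in control embryos. At 18 hpf it stood at 145, 167 and 143 CPM in ethanol embryos, against 149, 192 and 154 CPM in control embryos. The ethanol library was thus above its same-numbered control in 3 of 3 pairs at 15 hpf and below it in 3 of 3 pairs at 18 hpf, with overlapping groups at both times. Univin's log2 fold change was 0.31 ± 0.22 at 15 hpf (edgeR adjusted p = 0.606) and -0.12 ± 0.22 at 18 hpf (adjusted p = 0.782). The value at 18 hpf was 0.18 with unscaled library sizes, when the median of all gene models tested was 0.36. At 21 hpf Univin stood at 134, 142 and 186 CPM in ethanol embryos and 124, 202 and 160 CPM in control embryos, which overlap (log2 fold change -0.07 ± 0.22, adjusted p = 1).

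Bmp2/4, the ligand that specifies the dorsal side, was level at 15 hpf and higher in every ethanol library at 18 hpf without passing the test. At 15 hpf Sp-Bmp2/4 stood at 25.7, 16.6 and 34.8 CPM in ethanol embryos and at 28.3, 16.9 and 28.3 CPM in control embryos. The fitted difference on the log2 scale was 0.07 ± 0.31 (edgeR adjusted p = 0.946, and 0.903 in a fit with a term for replicate number, called the replicate block). At 18 hpf the ethanol libraries held 33.5, 27.2 and 41.2 CPM, against 26.0, 19.9 and 24.9 CPM in the controls, with no overlap. Such a separation in that direction was seen in 13.5% of all gene models tested. The log2 fold change of Bmp2/4 was 0.53 ± 0.31 (edgeR adjusted p = 0.376, and 0.127 with the replicate block). At 21 hpf the ethanol libraries held 40.9, 33.7 and 28.5 CPM and the control libraries 23.1, 21.0 and 38.6 CPM. Replicates 1 and 2 were higher with ethanol there and replicate 3 was lower, for a log2 fold change of 0.32 ± 0.31 (adjusted p = 1) with replicate 3 and 0.75 ± 0.34 (adjusted p = 0.452) without its 21 hpf pair.

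Chordin, the secreted protein that binds BMP ligands and keeps them from the ventral ectoderm, gave the largest ethanol difference among the 7 gene models at 18 hpf. L_var_21972 stood at 159, 148 and 243 CPM in ethanol embryos at 18 hpf, against 74.0, 54.2 and 87.6 CPM in control embryos. L_var_21973 stood at 128, 99.6 and 173 CPM in ethanol embryos and at 88.0, 39.5 and 64.2 CPM in control embryos. In both models every ethanol library was above every control library, as for 13.5% of all gene models tested. The log2 fold change of L_var_21972 was 1.35 ± 0.46, a 2.55-fold higher level (edgeR adjusted p = 0.245, and 0.0552 with the replicate block). That of L_var_21973 was 1.06 ± 0.47, or 2.09-fold (edgeR adjusted p = 0.286).

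The Chordin values at 15 hpf leaned the same way by less. L_var_21972 stood at 94.7, 152 and 199 CPM in ethanol embryos, against 107, 70.7 and 109 CPM in control embryos, with overlap. L_var_21973 stood at 88.6, 110 and 155 CPM in ethanol embryos and at 83.1, 58.4 and 87.1 CPM in control embryos, the lowest ethanol library just above the highest control, a separation that 6.72% of all gene models tested showed in that direction. Their log2 fold changes were 0.64 ± 0.46 and 0.63 ± 0.47 (edgeR adjusted p 0.606 and 0.621, and 0.339 and 0.336 with the replicate block).

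At 21 hpf the pairs disagreed. L_var_21972 stood at 173, 113 and 57.6 CPM in ethanol embryos, against 54.3, 45.5 and 156 CPM in control embryos. L_var_21973 stood at 151, 89.8 and 44.8 CPM in ethanol embryos, against 42.2, 34.7 and 116 CPM in control embryos. Ethanol was higher in replicates 1 and 2, and in replicate 3 the control library was the high one, so the groups overlapped. The log2 ratio of ethanol to control for L_var_21972 was 1.67 in replicate 1, 1.32 in replicate 2 and -1.43 in replicate 3. The log2 fold change over the 3 pairs was 0.43 ± 0.45 for L_var_21972 and 0.57 ± 0.47 for L_var_21973 (edgeR adjusted p = 1 each). Without the replicate 3 pair it was 1.52 ± 0.39 (edgeR adjusted p = 0.151) and 1.64 ± 0.41 (adjusted p = 0.139), and 0 of 7 members passed, against 0.0628% of all gene models. With the replicate block on the remaining pairs 3 of 7 passed, both Chordin models (edgeR adjusted p = 0.00248 and 0.00211) and Bmp2/4 (adjusted p = 0.0283), against 10.7% of all. In the pairs kept, deviations of the ethanol and control libraries at 21 hpf correlated at 0.156 (replicate 1) and 0.402 (replicate 2), against 0.6 to 0.742 at 15 hpf. The pair left out, at -0.222, ran against these members. Leaving it out raises their effect, so these calls are descriptions and not independent evidence.

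**Figure D3:**
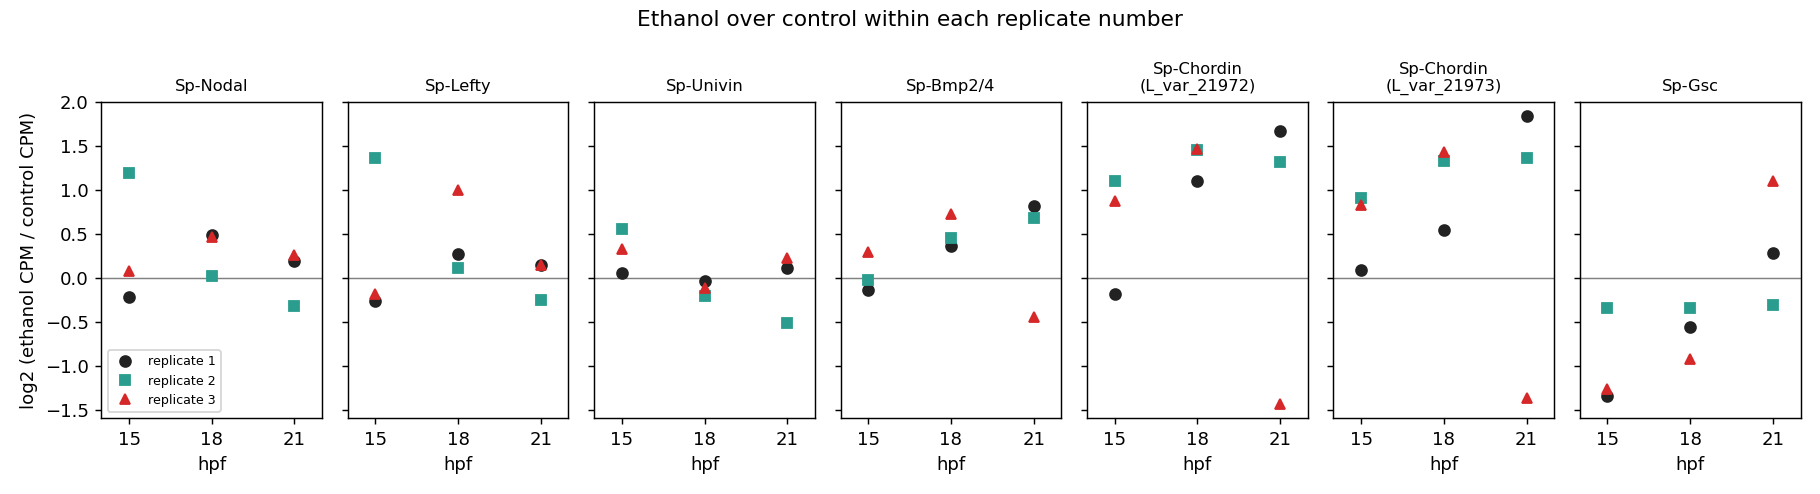
Log2 ratio of ethanol to control CPM within each replicate number (vertical axis) at 15, 18 and 21 hpf for the 7 gene models. The 21 hpf replicate 3 points of the Chordin models (-1.43 and -1.37) and of Bmp2/4 (-0.44) lie below 0 and that of Gsc (1.11) above it. Those of Chordin and Gsc lie away from the other points of their gene models. Bmp2/4 also has points below 0 at 15 hpf, in replicates 1 (-0.14) and 2 (-0.02).

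The 2 Chordin models gave nearly one profile. They correlated at r = 0.97 over the 18 libraries, each being the other's most similar gene, and their CPM ratio stayed between 0.841 and 1.49. Other gene models with names also lay close to them, led by Sp-Hypp_1472 (r = 0.95 with L_var_21972) and Sp-Ppap2cL (r = 0.94 with L_var_21973), each nearly as close as the models are to each other. By the same measure the nearest gene to Bmp2/4 was Sp-Fram1 (r = 0.92), to Gsc Sp-Cbr1_4 (r = 0.93) and to Univin Sp-Tmem69 (r = 0.73), none of them on the pathway list.

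Goosecoid, the homeobox repressor that Nodal activates in the oral ectoderm, was lower in ethanol embryos in every pair at 15 and 18 hpf without passing the test. At 15 hpf Sp-Gsc stood at 31.6, 103 and 47.3 CPM in ethanol embryos, against 80.0, 130 and 114 CPM in control embryos. At 18 hpf it stood at 76.0, 116 and 52.9 CPM in ethanol embryos and at 112, 147 and 101 CPM in control embryos. The ethanol library was below its same-numbered control in 3 of 3 pairs at both times, although replicate 2 was high in both arms and the groups overlapped. Its log2 fold change was -0.84 ± 0.40 at 15 hpf (edgeR adjusted p = 0.46, and 0.106 with the replicate block). At 18 hpf Gsc had -0.55 ± 0.40 (edgeR adjusted p = 0.458, and 0.167 with the block). At 21 hpf it stood at 147, 133 and 155 CPM in ethanol embryos, against 120, 164 and 72.1 CPM in control embryos, and the log2 fold change was 0.29 ± 0.39 (adjusted p = 1), or -0.03 ± 0.47 without the replicate 3 pair.

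Over time and with all libraries kept, Gsc was the member with a called change in edgeR with TMM scaling, in ethanol embryos and in the fit with the replicate block. From 15 to 21 hpf every ethanol library at 21 hpf was above every ethanol library at 15 hpf, as for 9.89% of all gene models, with a log2 fold change of 1.26 ± 0.40 without a replicate term (edgeR adjusted p = 0.101) and 1.42 with a replicate block (adjusted p = 0.00541). It was the only 1 of 7 members called with the block in that comparison, in which 12% of all gene models tested were called. In edgeR with TMM scaling none was called without the block, against 3.75% of all. Without the block Gsc was called by DESeq2 (1.27, adjusted p = 0.0347), against 7.07% of all. It was also called by edgeR with unscaled library sizes (1.27, adjusted p = 0.0223), against 3.1% of all. The blocked call held without the 21 hpf pair of replicate 3 (1.25, adjusted p = 0.00957) and was lost without replicate 1 (1.12, adjusted p = 0.115). Without that pair the blocked fit also called Univin (-0.70, edgeR adjusted p = 0.0294) and Bmp2/4 (0.72, adjusted p = 0.0186) in ethanol embryos, against 11.7% of all. In control embryos it called both Chordin models lower at 21 hpf (-0.75 and -0.83, adjusted p = 0.0414 and 0.0302), against 18.4% of all. In control embryos the same interval gave Gsc a log2 fold change of 0.14 ± 0.39 (adjusted p = 0.913) and overlapping groups. The test of whether the ethanol effect on Gsc depended on time gave an edgeR adjusted p of 1 (0.764 with the block), so the time courses of the 2 arms were not shown to differ.

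Nodal and Lefty had their lowest mean in control embryos at 18 hpf and their highest in ethanol embryos at 15 hpf. Their level at 18 hpf relative to 15 hpf was lower by a log2 fold change of -0.83 ± 0.34 (Nodal) and -0.86 ± 0.42 (Lefty) in ethanol embryos (edgeR adjusted p = 1 each). In control embryos the values were -0.68 ± 0.34 (adjusted p = 0.882) and -0.69 ± 0.42 (adjusted p = 0.971), with every control library at 18 hpf below every one at 15 hpf for both genes, as for 4.94% of all gene models. Univin was lower in every ethanol library at 21 hpf than in any at 15 hpf, as were 8.39% of all gene models (log2 fold change -0.48 ± 0.22, adjusted p = 0.302), against -0.10 ± 0.22 in control embryos (adjusted p = 0.883). When the 6 groups were ordered by mean level, neighbours in that order overlapped in their libraries for each of the 7 gene models.

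Counted together, in edgeR without the block 0 of 7 members passed an adjusted p of 0.05 at 15 hpf, where 0.0589% of all gene models tested did. None of the 7 had an unadjusted p under 0.05 there, against 10.9% of all. With the block 1 of 7 did, Gsc (edgeR unadjusted p = 0.00567), against 23.2% of all. Without the block 0 of 7 passed at 18 hpf and at 21 hpf, and so did 0% of all gene models. At an unadjusted p under 0.05 edgeR gave 2 of 7 members at 18 hpf without the block, both of them Chordin, against 16.4% of all. With the block it gave 3 of 7 there, against 32.4% of all. Libraries of the ethanol and control groups did not overlap for 3 of 7 members at 18 hpf, all higher with ethanol, against 13.5% of all gene models, and 2 of the 3 are the Chordin models. DESeq2 without the block also called 0 of 7 at each of the 3 times, against 1.15% of all gene models at 15 hpf, 1.9% at 18 hpf and 0% at 21 hpf. With the replicate block DESeq2 called 1 of 7 at 15 hpf, Gsc (adjusted p = 0.0409, 6.44% of all), and 1 of 7 at 18 hpf, Chordin L_var_21972 (adjusted p = 0.0155, 16.4% of all), neither of which edgeR called with the block. For the mean of the 3 times 0 of 7 members passed in edgeR without the block, against 0.53% of all, and 2 of 7 had an unadjusted p under 0.05, against 23% of all. DESeq2 called 1 of 7 there, Chordin L_var_21972 (adjusted p = 0.0386), against 7.8% of all. The largest mean effects were those of Chordin, 0.81 ± 0.26 for L_var_21972 (edgeR adjusted p = 0.104) and 0.75 ± 0.27 for L_var_21973 (adjusted p = 0.127). Without the 21 hpf pair of replicate 3 the mean effects were 1.17 ± 0.19 (adjusted p = 0.00186) and 1.11 ± 0.21 (adjusted p = 0.00332), and these 2 of 7 members were called where 18.3% of all gene models were. Leaving out a pair that ran against the Chordin models raises their effect, so these p-values are not independent evidence. The mean effect was 0.30 ± 0.18 for Bmp2/4 (adjusted p = 0.304), 0.30 ± 0.19 for Nodal (adjusted p = 0.355), 0.31 ± 0.24 for Lefty (adjusted p = 0.447), 0.04 ± 0.13 for Univin (adjusted p = 0.879) and -0.37 ± 0.23 for Gsc (adjusted p = 0.335). No member's ethanol effect was shown to depend on time: 0 of 7 passed in edgeR's interaction test with or without the block, as did 0% of all gene models. Without the block none of the 7 had an unadjusted p under 0.05, against 2.21% of all. With it 1 of 7 did, Gsc (unadjusted p = 0.0154 in that test), against 6.46% of all.

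**Figure D4:**
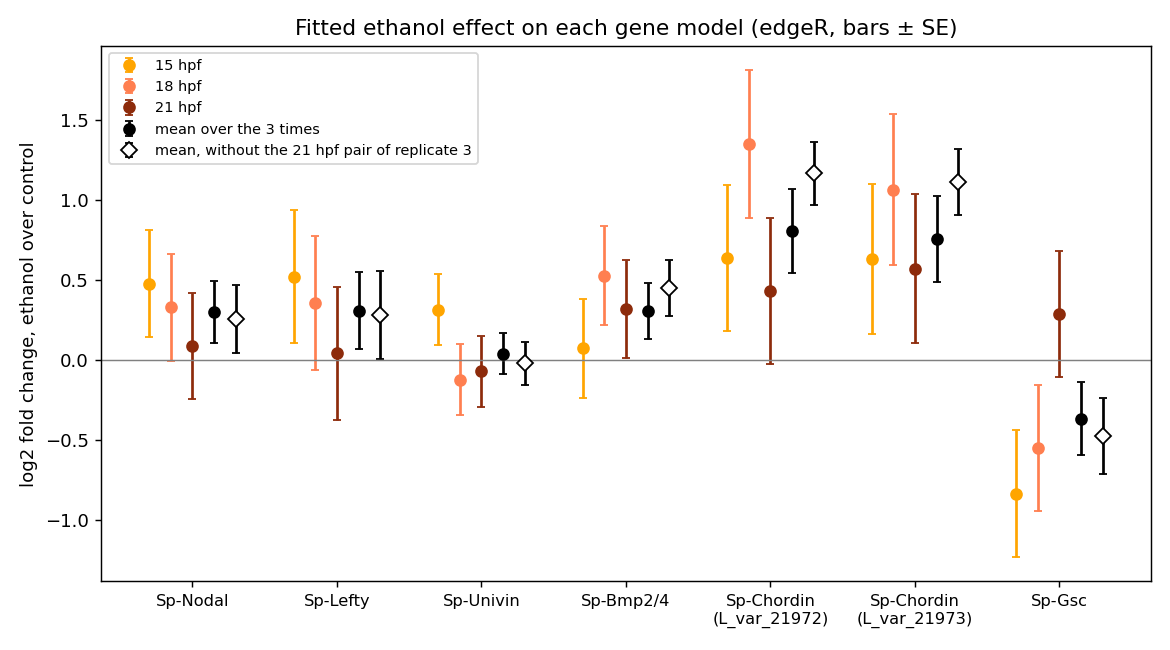
Log2 fold change of ethanol over control (vertical axis, ± SE, edgeR without a replicate term) for each gene model at 15, 18 and 21 hpf and for the mean of the 3 times, with open diamonds for the mean without the 21 hpf pair of replicate 3. The Chordin means are 0.81 and 0.75 with that pair and 1.17 and 1.11 without it.

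The rest of the pathway was read from a list of 70 other gene models, made with earlier results of these data known, 61 of which were tested. At 15 hpf 1 of the 61 passed without a replicate term (0.0589% of all gene models), and 3 passed, all lower, in the blocked fit (0.477% of all gene models in that fit). At 18 hpf none passed without the block, when 15 of 61 had an unadjusted p under 0.05 in edgeR, against 16.4% of all. With it 4 passed, 1 higher and 3 lower (4.07% of all). At 21 hpf 0 of 61 passed in edgeR or in DESeq2, as did 0% of all. None had an unadjusted p under 0.05 in edgeR, against 0.685% of all without the block.

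The 3 that fell with the block at 15 hpf and the 3 at 18 hpf were the same 3 gene models, all of transcription factors. Sp-Dr_1 is the purple urchin's deadringer, an oral ectoderm regulator. It stood at 21.6, 76.2 and 35.2 CPM in ethanol embryos at 15 hpf, against 212, 539 and 395 CPM in control embryos, a log2 fold change of -3.11 (edgeR adjusted p = 0.0477, and 0.00153 with the block). At 18 hpf it stood at 83, 297 and 159 CPM in ethanol embryos and at 530, 723 and 846 CPM in control embryos (-1.96, adjusted p = 0.0426 with the block, 0.229 without). Sp-Hox7, a homeobox gene of the aboral ectoderm, had a log2 fold change of -1.98 at 15 hpf (adjusted p = 0.0138 with the block, 0.15 without) and -1.27 at 18 hpf (0.0462 with, 0.237 without). Sp-Lhx2, a LIM homeobox gene, had -2.13 at 15 hpf (adjusted p = 0.025 with the block, 0.107 without) and -1.37 at 18 hpf (0.0478 with, 0.231 without). The list thus holds an oral and an aboral regulator among those that were lower. The member that lay lower beside them was Gsc, and it did not pass.

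The gene called higher at 18 hpf was Sp-Gpc35_2, a glypican, a cell surface proteoglycan of the kind that binds BMP and other ligands. It stood at 306, 166 and 334 CPM in ethanol embryos, against 154, 107 and 160 CPM in control embryos (log2 fold change 0.93, adjusted p = 0.0489 with the block, 0.25 without). The 10 extracellular modulators on the list, other than the members, had a median log2 fold change of 0.86 at 18 hpf and the 9 receptors one of 0.72, against 0.05 for all gene models tested. At an unadjusted p under 0.05 these were 5 of 10 and 2 of 9, all higher, where 16.4% of all gene models were in either direction. These counts are of gene models, and some share a name. Sp-Tsg and Sp-Gpc1246 have 2 each among the modulators, and Sp-Alk4/5/7 and Sp-Tgfbr2 have 2 each among the receptors. The counts are thus not all independent observations. The 10 intracellular components, the Smad proteins and their regulators, had a median of 0.13. The 15 ventral and upstream genes had -0.22 and the 14 dorsal genes 0.02. At 15 hpf the medians were 0.36 for extracellular modulators, 0.43 for receptors and -0.52 for ventral and upstream genes, against 0.04 for all. At 21 hpf they were 0.056 for extracellular modulators, 0.098 for receptors and -0.029 for ventral and upstream genes, against -0.025 for all.

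**Figure D5:**
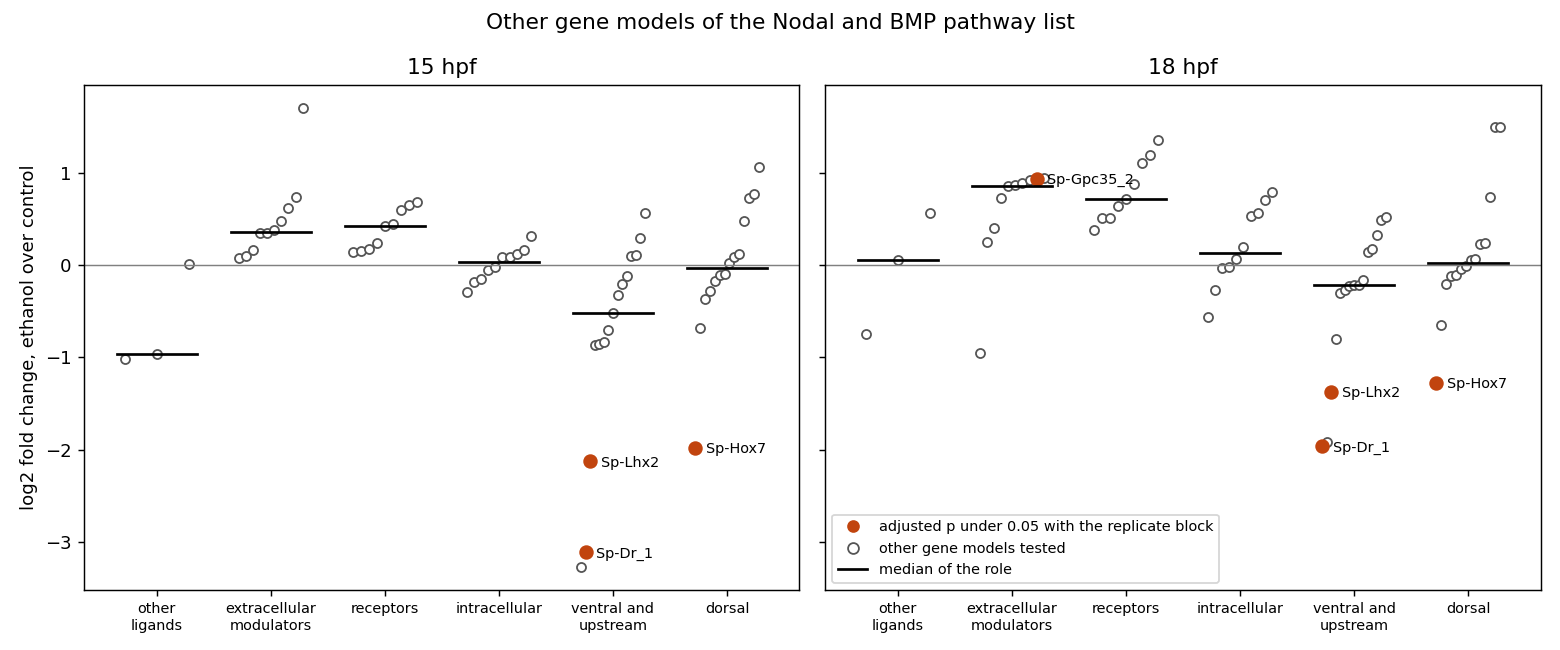
Log2 fold change of ethanol over control (vertical axis, edgeR without a replicate term) at 15 and 18 hpf for the 61 other pathway gene models by role, with black bars for medians. Filled points had an adjusted p under 0.05 with the replicate block. Extracellular modulators and receptors lie mostly above 0 at 18 hpf, with medians of 0.86 and 0.72.

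For the mean of the 3 times, 4 of 61 list genes passed without a replicate term, all lower, where 0.386% of all gene models were called lower. They were the neighbouring Sp-Lhx2_1 (-1.95, edgeR adjusted p = 0.0398) and Sp-Lhx2 (-1.37, adjusted p = 0.0223), Sp-Dr_1 (-1.61, adjusted p = 0.0373) and Sp-Hox7 (-1.11, adjusted p = 0.0426). Without the 21 hpf pair of replicate 3, 17 of 61 passed, among 18.3% of all gene models. With the replicate block 12 of 61 passed, where 21.2% of all gene models did, a share near that background. The 8 that passed with the block alone had the following mean effects without it. Sp-Vwdf_1, whose UniProt hit is the BMP-binding protein crossveinless-2, had 0.68 (adjusted p = 0.119). The 2 models of Sp-Tsg, twisted gastrulation, a partner of Chordin, had 0.48 (adjusted p = 0.119) and 0.49 (adjusted p = 0.228). The glypicans Sp-Gpc35_2 and Sp-Gpc1246 had 0.59 (adjusted p = 0.118) and 0.44 (adjusted p = 0.194), and the activin receptor Sp-Acvr2_1 had 0.64 (adjusted p = 0.199). The dorsal T-box gene Sp-Tbx2/3 had 0.34 (adjusted p = 0.125) and the homeobox gene Sp-Unc4.1_1 had -0.46 (adjusted p = 0.126). At 21 hpf the smallest p-values on the list were those of Sp-IrxA (log2 fold change 0.42), Sp-Smurf2 (-0.59) and Sp-Lhx2 (-0.60), each with an adjusted p of 1.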

How the data were processed

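Raw read counts per gene model were deposited with 1 column per sample, and fastp, STAR and featureCounts are named in the submitters' processing notes, without versions or roles; the genome build and strand setting are not given in the sources used here. Percent identity to purple sea urchin proteins and gene names were taken as the authors deposited them, per the file headers. Replicates 1, 2 and 3 were matched to A, B and C of the deposited sample sheet. Members, pathway list and markers were chosen with earlier results of these data known.

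Counts were analysed in R 4.3.3 with edgeR 4.0.16: filterByExpr (minimum count 10, minimum total 15), TMM, and a quasi-likelihood fit of 6 group means over 18 libraries. P-values were two-sided and adjusted by Benjamini-Hochberg within each of 11 comparisons, with a threshold of 0.05. SE is the log2 fold change divided by the square root of F. The scripts were tested on simulated data.

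Replicate numbers pair the libraries at 15 and 18 hpf and between times within an arm, where each pair's correlation of deviations exceeded 0.1. They do not in every pair at 21 hpf (0.156, 0.402 and -0.222). The edgeR fit with the block therefore stands beside results of the paired comparisons where it changed a call or a count. From the list, genes passing in any ethanol comparison with or without the block were named, and the 3 with the smallest p at each time. Alternatives were DESeq2 1.42.0, other scalings, no filter, the replicate block, fits to the compared groups alone and leaving out libraries.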

Additional observations from a re-analysis of the deposited data

Results flagged for a closer look

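Sp-Univin was singled out because its ethanol effect pointed in opposite directions at 15 and 18 hpf in every pair. The ethanol library was above its control in 3 of 3 pairs at 15 hpf, with a log2 fold change of 0.31, and below it in 3 of 3 pairs at 18 hpf, with -0.12. That pattern of signs was not itself tested between those times. The interaction test over the 3 times gave an adjusted p of 1 without the replicate block (unadjusted p = 0.343) and 0.8 with it (unadjusted p = 0.308). With unscaled library sizes the value at 18 hpf was 0.18, so the signs no longer differed. The median of all gene models at 18 hpf also moved, from 0.05 with TMM to 0.36. Univin lay below that median with either scaling.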

How the results depend on the processing

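Over 43 member results and 1021 recalculations, 935 kept their direction and their side of the threshold, 37 moved past the threshold and 49 changed sign; none of the 43 was called without an alternative. The replicate block called 2 members for the mean of the 3 times, both Chordin (0.87, adjusted p = 0.0209, and 0.81, adjusted p = 0.0273), though numbers do not pair the samples at 21 hpf, and 12 list genes there (21.2% of all gene models). It called 1 member from 15 to 21 hpf in ethanol embryos, 3 list genes at 15 hpf and 4 at 18 hpf, and changed no other count of calls. DESeq2 called 1 member for the mean (7.8% of all) and 1, Gsc, from 15 to 21 hpf in ethanol embryos (7.07%). It also called 3 list genes at 15 hpf (1.15%), 1 at 18 hpf (1.9%) and 1 for dependence on time (0.078%). DESeq2 with the block called 1 member at 15 hpf (Gsc, adjusted p = 0.0409), 1 at 18 hpf (Chordin L_var_21972, adjusted p = 0.0155), 2 for the mean, and 1 each from 18 to 21 (4.98%) and from 15 to 21 hpf (15.8%) in ethanol embryos, with 6 list genes at 15 hpf (6.44% of all gene models), 16 at 18 hpf (16.4%), 16 for the mean (26.3%) and 2 for dependence on time (0.279%). Fitted to the compared groups alone, 0 list genes were called at 15 hpf.

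Unscaled library sizes, an alternative chosen after the scaling factors were seen, moved the median of all gene models to 0.32 at 15 hpf and 0.36 at 18 hpf, against 0.04 and 0.05 with TMM. They called 1 member, Gsc, from 15 to 21 hpf in ethanol embryos (3.1% of all), and turned Univin to 0.18 at 18 hpf and to 0.012 from 15 to 21 hpf in control embryos.

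Without the 21 hpf pair of replicate 3, the effect at 21 hpf was -0.033 for Nodal, -0.028 for Lefty and -0.030 for Gsc, and the mean effect on Univin was -0.022. Then 2 members and 17 list genes were called for the mean (18.3% of all). With the block added, Nodal was at -0.035, Lefty at -0.027 and the Univin mean at -0.017. That fit called 3 members and 6 list genes at 21 hpf (10.7% of all), 4 members and 27 list genes for the mean (45.4%), 1 list gene for dependence on time (0.199%), and 3 members in ethanol (11.7%) and 2 in control embryos (18.4%) from 15 to 21 hpf.

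With single libraries or replicate numbers left out, with and without the block, counts of called members ran between 0 and 0 at 15 hpf, 0 and 1 at 18 hpf, 0 and 2 at 21 hpf, 0 and 3 for the mean and 0 and 2 from 15 to 21 hpf in ethanol embryos. Without the 21 hpf control library of replicate 3 alone, both Chordin models were called for the mean (edgeR adjusted p = 0.0111 and 0.0176). That library held the highest Chordin levels of the 21 hpf controls (156 and 116 CPM). Leaving it out raises their effect, so these p-values are not independent evidence. Called list genes ran between 0 and 4 at 15 hpf, 0 and 5 at 18 hpf, 0 and 3 at 21 hpf and 0 and 21 for the mean. The share of all gene models called in these fits was not counted. The ranges for members and list genes were therefore not set against a background. At 15 hpf the effect ran between -0.087 and 0.79 for Nodal, -0.24 and 0.81 for Lefty and -0.22 and 0.29 for Bmp2/4. At 21 hpf it ran between -0.11 and 0.30 for Nodal, -0.078 and 0.22 for Lefty, -0.24 and 0.19 for Univin, -0.21 and 1.53 for Chordin L_var_21972, -0.13 and 1.65 for L_var_21973, and -0.019 and 0.67 for Gsc. The Univin mean ran between -0.0355 and 0.10, and from 15 to 21 hpf in control embryos Univin ran between -0.34 and 0.21 and Gsc between -0.17 and 0.47. The cause of these changes was not tested. Groups of 3 libraries limit what could be called.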
